A study of Mus musculus with 6 samples.

Results

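The remote intergenic ATAC-Seq peaks of Beko cells were selected by their position and CpG content, without any measured signal. A peak qualified when it lay on an autosome, its centre fell in no annotated gene, its nearest edge was more than 50 kb from the start of every annotated transcript, and it was CpG-poor. CpG-poor meant an observed to expected CpG ratio under 0.6 or a GC content under 50%. In all, 2086 of the 31879 autosomal peaks met the rule, 6.54% of them, out of 32527 peaks on all chromosomes. Beko is a line of mouse T-cell precursors whose Notch pathway is always on, and ATAC-Seq reads out DNA that a transposase can reach. Cells received the γ-secretase inhibitor (GSI) DAPT or the solvent DMSO for 24 h, with 3 libraries per treatment. The deposited peaks are merged over all 6 libraries, so peaks seen under either treatment are listed together and no peak carries a height. No replicate error could therefore be given, GSI was not compared with DMSO, and the identity of the cells was not checked against marker expression. Where errors appear below, they are the spread over the 19 autosomes or 95% intervals that cover counting error only.

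Accessible DNA far from any transcription start site (TSS) is where distal enhancers and insulator sites are found. Enhancers are bound by transcription factors and act on promoters over long distances by looping, often from gene deserts next to developmental regulators, while CTCF sites are known as anchors and boundaries of such loops. In early T cells the E proteins bind E-boxes, RUNX and ETS factors and GATA3 and TCF1 act with them, and Notch signals through RBPJ, which binds TGGGAA and variants of it. Several Notch-responsive elements in T cells are distal, among them a downstream Myc enhancer known from the literature. Whether any peak described here is that element was not tested.

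To show what such DNA looks like, the central 300 bp of the widest remote peak are printed for 7 of the 8 gene deserts that held most of them, where a desert is the interval between neighbouring protein-coding genes. The sequences are the plus strand of mouse build mm9, 5′ to 3′. Capitals mark matches on either strand to 11 motifs, and the SP motif GGGCGG, which was also searched, is left in lower case. The 11 were the E-box motifs CAGCTG and, for E proteins and zinc-finger repressors, CACCTG. The RUNX factors were searched as TGTGGT, the ETS factors as AGGAAG, and RBPJ as TGGGAA or its degenerate form TGAGAA. The GATA factors were searched as AGATAA, the TCF and LEF factors as CTTTGA, the AP-1 factors as TGANTCA, the STAT factors as TTCNNNGAA, and CTCF by its core motif. A match is a run of letters and not a bound site, and overlapping matches share 1 stretch of capitals.
Id2-Rnf144a desert, chr12:25874708-25875007: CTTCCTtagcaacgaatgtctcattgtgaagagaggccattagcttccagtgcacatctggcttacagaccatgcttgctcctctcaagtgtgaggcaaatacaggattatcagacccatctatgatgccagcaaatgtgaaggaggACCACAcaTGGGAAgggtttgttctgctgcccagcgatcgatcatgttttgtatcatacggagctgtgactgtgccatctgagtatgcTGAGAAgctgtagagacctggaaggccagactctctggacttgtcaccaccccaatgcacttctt
Myc-Gsdmc desert, chr15:63087121-63087420: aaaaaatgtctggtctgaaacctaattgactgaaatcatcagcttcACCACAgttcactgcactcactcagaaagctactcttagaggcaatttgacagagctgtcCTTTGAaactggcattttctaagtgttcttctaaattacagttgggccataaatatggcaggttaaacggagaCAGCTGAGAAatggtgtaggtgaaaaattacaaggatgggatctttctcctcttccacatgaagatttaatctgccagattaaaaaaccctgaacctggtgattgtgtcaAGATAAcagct
Satb1-Kcnh8 desert, chr17:52601197-52601496: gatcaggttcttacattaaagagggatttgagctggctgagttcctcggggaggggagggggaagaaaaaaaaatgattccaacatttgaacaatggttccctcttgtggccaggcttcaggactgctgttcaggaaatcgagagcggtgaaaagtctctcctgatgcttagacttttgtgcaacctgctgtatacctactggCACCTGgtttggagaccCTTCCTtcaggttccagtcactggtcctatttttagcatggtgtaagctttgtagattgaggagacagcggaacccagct
Uaca-Gm10655 desert, chr9:60861018-60861317: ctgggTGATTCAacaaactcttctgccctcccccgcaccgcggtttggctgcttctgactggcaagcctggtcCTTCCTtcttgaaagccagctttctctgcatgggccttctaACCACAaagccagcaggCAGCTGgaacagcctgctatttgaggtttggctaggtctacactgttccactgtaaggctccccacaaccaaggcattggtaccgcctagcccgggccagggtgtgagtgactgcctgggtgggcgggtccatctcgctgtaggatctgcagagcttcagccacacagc
Prickle1-Adamts20 desert, chr15:94004081-94004380: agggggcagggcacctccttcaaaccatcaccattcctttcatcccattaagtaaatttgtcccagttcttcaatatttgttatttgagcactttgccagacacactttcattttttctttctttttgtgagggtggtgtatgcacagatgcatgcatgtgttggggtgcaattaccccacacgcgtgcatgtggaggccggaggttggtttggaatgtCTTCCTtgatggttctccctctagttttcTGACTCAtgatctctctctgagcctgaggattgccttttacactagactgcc
BC048507-Mtrr desert, chr13:68375095-68375394: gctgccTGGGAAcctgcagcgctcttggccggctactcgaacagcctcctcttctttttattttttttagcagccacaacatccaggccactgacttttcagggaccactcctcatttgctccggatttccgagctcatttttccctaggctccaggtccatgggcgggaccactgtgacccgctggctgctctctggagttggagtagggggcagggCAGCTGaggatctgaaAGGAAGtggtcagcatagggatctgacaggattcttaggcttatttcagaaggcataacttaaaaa
Ly86-Rreb1 desert, chr13:37784083-37784382: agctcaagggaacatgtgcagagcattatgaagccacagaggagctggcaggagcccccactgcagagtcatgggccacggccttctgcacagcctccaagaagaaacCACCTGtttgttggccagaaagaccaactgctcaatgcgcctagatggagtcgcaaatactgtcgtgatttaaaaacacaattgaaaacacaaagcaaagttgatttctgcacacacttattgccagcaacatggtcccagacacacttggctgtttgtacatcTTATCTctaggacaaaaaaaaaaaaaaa
The Id2 sequence, from the widest of all remote peaks at 1801 bp, held a RUNX match next to TGGGAA and a TGAGAA further on. In the Myc desert CAGCTG and TGAGAA overlapped, with GATA, RUNX and TCF/LEF matches in the same 300 bp. The Uaca sequence combined CAGCTG, RUNX, ETS and AP-1 matches. In the Satb1 and Ly86 deserts the shown stretch held 1 CACCTG match with an ETS and a GATA match, respectively.

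Paired RBPJ hexamers that face each other are shown next, because Notch complexes can dimerise on such sites. Facing TGGGAA or TGAGAA hexamers with 15 to 17 bp between them occurred in 5 of the 2086 remote peaks (0.240%, Wilson interval 0.102 to 0.560). The share was 0.278% among CpG-poor intergenic peaks 1 to 50 kb from TSSs, 0.104% among CpG-poor intronic peaks and 0.179% among all autosomal peaks, and at these counts the intervals of the remote and the 1 to 50 kb class overlapped. All 5 are given on the plus strand of mm9 with both hexamers in capitals, named by the flanking coding genes. They were singled out after the values were seen.
Scaf11-Slc38a1, chr15:96373655-96373695: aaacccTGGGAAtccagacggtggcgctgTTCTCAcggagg
Bcl6-Lpp, chr16:24332002-24332041: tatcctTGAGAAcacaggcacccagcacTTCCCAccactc
2810407A14Rik-Grik1, chr16:87841413-87841451: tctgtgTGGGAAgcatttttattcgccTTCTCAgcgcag
Uaca-Gm10655, chr9:60973637-60973676: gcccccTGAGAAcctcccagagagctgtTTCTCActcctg
Anxa2-Foxb1, chr9:69510310-69510350: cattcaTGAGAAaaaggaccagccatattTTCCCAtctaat
The Bcl6-Lpp pair lay 61.2 kb from the nearest TSS in a desert of 9 remote peaks. Its peak was 61.5 kb from Lpp and 343.0 kb from Bcl6, the gene of a transcriptional repressor. The Uaca-Gm10655 pair was the most remote, 245.8 kb from any TSS and close to the middle of its desert. Both hexamers of that pair, and 1 hexamer of each of the other 4, were TGAGAA.

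The median width of remote peaks was 473 bp (quartiles 388 and 631 bp, range 214 to 1801 bp), against 463 bp for the 7557 CpG-poor intergenic peaks 1 to 50 kb from TSSs and 461 bp for the 9640 CpG-poor intronic peaks over 1 kb from TSSs. Over the autosomes the median width was 9.66 ± 21.7 bp above that of the nearer intergenic class and 12.4 ± 21.2 bp above that of the intronic class (mean ± SD, n = 19). It was higher on 13 of 19 autosomes in both comparisons, which did not pass a two-sided exact sign test (adjusted p = 0.167 for each of the 2 tests). Remote peaks covered 1136.3 kb, 5.44% of the bp in autosomal peaks, and 113 of them (5.42%) were 1 kb or wider. Their median GC content was 48.8%, compared with 49.9% in nearer intergenic and 50% in intronic peaks.

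Beyond 10 kb, accessible peaks thinned out with distance from TSSs. CpG-poor intergenic peaks numbered 12.6 per Mb of sequenced intergenic DNA at 1 to 5 kb from the nearest TSS, 13.99 per Mb at 5 to 10 kb, 12.1 per Mb at 10 to 20 kb and 8.72 per Mb at 20 to 50 kb. Beyond 50 kb the density was 5.00 per Mb up to 100 kb (1186 peaks), 2.91 per Mb in the class that ends at 200 kb (646 peaks), 1.32 per Mb in the class that ends at 500 kb (246 peaks) and 0.195 per Mb farther out (8 peaks). From 5 kb outward the counting intervals of neighbouring classes did not overlap, as the plot of density by distance shows. Over all 686.0 Mb of remote DNA the density was 3.04 per Mb (95% Poisson interval 2.91 to 3.17), 0.273 times the 11.1 per Mb found 1 to 50 kb from TSSs. Distance was part of the rule, so these values are a description without a test.

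**Figure D1:**
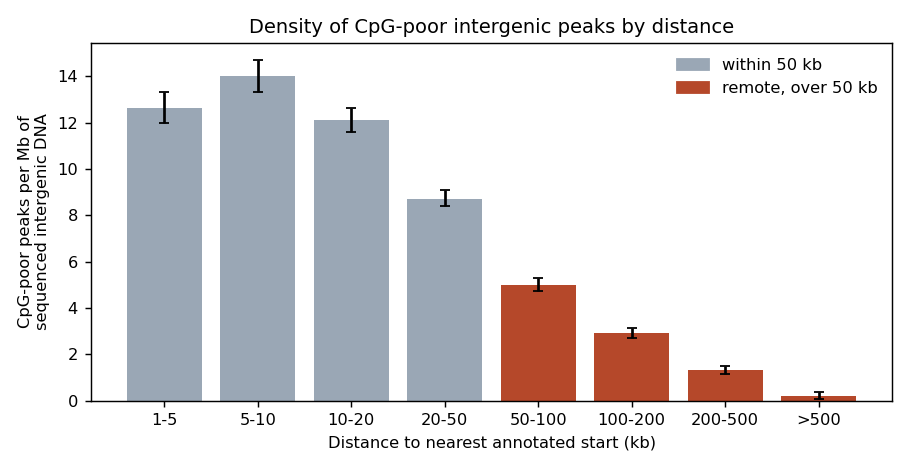
Bars give the number of CpG-poor intergenic peaks per Mb of sequenced intergenic DNA (y axis) in 8 classes of distance to the nearest annotated start in kb (x axis), with 95% Poisson intervals as error bars. Grey bars lie within 50 kb and red bars are the remote peaks, which fall from 5.00 to 0.195 per Mb.

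The median remote peak was 88.9 kb from the nearest TSS of any kind and 110.0 kb from the nearest coding TSS, and the nearest TSS was that of a coding gene for 1319 peaks (63.2%). Of the 2086, 900 (43.1%) lay over 100 kb and 254 (12.2%) over 200 kb away. Remote peaks also stood farther apart from other peaks, with a median gap of 14.2 kb to the nearest peak of any class, against 8.92 kb for nearer intergenic and 9.52 kb for intronic peaks. In 240 cases (11.5%) no other peak lay within 100 kb, which was so for 2.71% of nearer intergenic and 2.81% of intronic peaks. The rule itself keeps remote peaks away from peaks at TSSs, and how much of these contrasts comes from that was not tested. Many remote peaks nevertheless came in company, since 828 (39.7%) belonged to 348 runs of 2 or more remote peaks spaced at most 10 kb apart. Close neighbours were still less common than in the other classes. A peak of any class lay within 20 kb of 59.4% of remote, 76.0% of nearer intergenic and 74.8% of intronic peaks.

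The number of remote peaks differed widely among autosomes even per Mb of remote DNA, with 3.04 ± 1.09 per Mb (mean ± SD, n = 19). Chromosome 11 had the fewest, 22 peaks at 1.32 per Mb, which made up 0.809% of its peaks. Chromosome 13 had the most per Mb, 188 peaks at 4.84 per Mb, followed by chromosomes 15 and 17 at 4.60 and 4.59 per Mb. As a share of its peaks, chromosome 18 was highest at 14.5%, with chromosome 13 at 14.3%. As a share of peaks the autosomes averaged 7.23 ± 3.81%.

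To compare the factor motifs in these sites, 12 motifs were searched in the central 200 bp of each peak, and the 11 without a CG were compared over the autosomes with both other CpG-poor classes (22 tests). Remote peaks held fewer CTCF cores, the sequence recognised by the insulator protein CTCF. The core was present in 108 remote peaks (5.18%), in 812 nearer intergenic peaks (10.7%) and in 7.95% of intronic peaks. By autosome the share ranged from 0% over a median of 5.32% to 8.26% in remote peaks and from 6.45% over 10.5% to 16.1% in nearer intergenic peaks. The remote share was lower on 19 of 19 autosomes than the nearer intergenic share, with a difference of -5.82 ± 2.85 percentage points (mean ± SD, n = 19), a raw p = 3.81e-06, the smallest that 19 autosomes allow, and an adjusted p = 8.39e-05 in the two-sided exact sign test. It was lower than the intronic share on 16 autosomes, higher on 2 and equal on 1, with a difference of -3.01 ± 2.18 points (n = 19, exact sign test, adjusted p = 0.0144). The intronic call was lost at a limit of 100 kb and among peaks with 40 to 50% central GC (exact sign test, adjusted p = 0.211 in both), whereas the call against nearer intergenic peaks was kept in both.

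**Figure D2:**
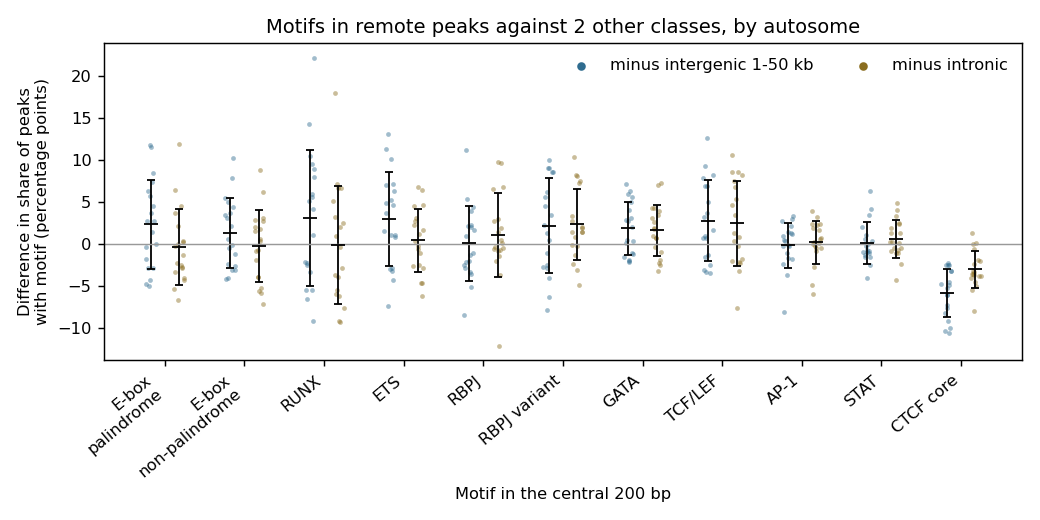
Each point is 1 autosome and gives the share of remote peaks with a motif minus the share in the other class, in percentage points (y axis), for 11 motifs (x axis), where blue points use intergenic peaks 1 to 50 kb from starts and brown points intronic peaks, and the palindromic E-box is CAGCTG and the other CACCTG. Bars show mean and SD over 19 autosomes, and only the CTCF core lies below 0 on 19 of 19 autosomes in the blue comparison.

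The other 10 motifs did not pass in either comparison. The ETS motif was found in 38.5% of remote and 36.6% of nearer intergenic peaks, higher on 14 of 19 autosomes (two-sided exact sign test, adjusted p = 0.466). The GATA motif was found in 11.2% against 8.89% and the TCF/LEF motif in 18.9% against 16.4%, both higher on 13 autosomes (exact sign test, adjusted p = 0.525 each). RUNX was found in 27.2% against 24.3%, CAGCTG in 26.0% against 24.6%, CACCTG in 27.2% against 27.1% and TGGGAA in 16.5% against 17.1%, none of which reached the threshold. When whole peaks were searched, CAGCTG also passed against nearer intergenic peaks, at 3.66 points higher on 17 of 19 autosomes (exact sign test, adjusted p = 0.00534). In the central 200 bp it was higher on 12 (exact sign test, adjusted p = 0.659). Whole peaks differ in width, with the remote median higher on 13 of 19 autosomes, and the part of width in this call was not tested.

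Against their own surroundings, remote peaks carried several of the motifs more often. Windows of 200 bp centred 2 kb to either side, which met no peak, served as 4101 flanks with a median GC content of 45% against 50% in the peak centres. CAGCTG occurred in 26.0% of peak centres and 8.29% of flanks, a ratio of 3.14, and more often in peaks on 19 of 19 autosomes. CACCTG (27.2% against 12.9%) and the ETS motif (38.5% against 24.9%) were likewise higher on 19 autosomes, and RUNX (27.2% against 15.1%) on 18. The CTCF core, in 0.0975% of flanks, had the highest ratio at 53.1, followed by the SP motif GGGCGG at 3.64 (6.66% against 1.83%, higher on 17 autosomes). An excess of CAGCTG over flanks was also present in nearer intergenic peaks (24.6% against 9.52%) and in intronic peaks (27.1% against 10.2%). The single RBPJ hexamer did not follow them. TGGGAA occurred in 16.5% of peak centres and 18.7% of flanks, higher in peaks on 5 autosomes only, and TGAGAA in 19.3% and 18.3%. GATA (11.2% and 11.4%) and STAT (5.75% and 6.29%) were also close to their flanks, while AP-1 (6.81% and 5.54%) and TCF/LEF (18.9% and 14.6%) were higher on 14 autosomes. These differences from the flanks were not tested, nor was the part that the higher GC content of the peaks has in them.

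Across all autosomal peaks, promoters included, the shares with each motif were 21.4% for CAGCTG, 23.5% for CACCTG, 19.98% for RUNX, 32.7% for ETS, 15.3% for TGGGAA, 13.8% for TGAGAA, 6.86% for GATA, 13.1% for TCF/LEF, 4.98% for AP-1, 4.84% for STAT and 6.25% for the CTCF core. The SP motif GGGCGG, which contains a CG and was left untested because the rule limits CpG, stood at 23.3% in all autosomal peaks and 6.66% in remote peaks. An E-box, RUNX or ETS match was present in the centre of 1572 remote peaks (75.4%), and 242 (11.6%) held none of the tested motifs. These combined shares are given for remote peaks only and mark no difference from other classes. In intronic peaks the single shares were 27.1% for CAGCTG, 28.7% for CACCTG, 27.6% for RUNX and 39.0% for ETS. TGGGAA occurred anywhere in 834 remote peaks (39.98%), a share of whole peaks that is not comparable with the central shares above. In whole peaks the mean difference over autosomes was -0.453 percentage points against nearer intergenic peaks, with the remote share higher on 9 autosomes. Against intronic peaks the mean difference was 1.43 points, with the remote share higher on 12 autosomes (exact sign test, adjusted p = 0.527). Neither difference passed the threshold.

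Beyond 20 kb, the CTCF share was lower in each class farther from TSSs. It was 10.1% at 1 to 5 kb, 12.6% at 5 to 10 kb, 12.1% at 10 to 20 kb, 8.74% at 20 to 50 kb, 5.90% at 50 to 100 kb, 4.64% at 100 to 200 kb and 3.25% at 200 to 500 kb, while flanks stayed at or below 0.249% in every one of these classes. The GATA share was ordered the other way within the remote peaks, from 9.11% (Wilson interval 7.60 to 10.9) at 50 to 100 kb to 12.8% (10.5 to 15.7) and 17.1% (12.9 to 22.3) in the next classes, where flanks held 11.1%, 11.7% and 11.8%. RUNX (27.3%, 25.7% and 30.9%) and TCF/LEF (20.5%, 15.8% and 19.9%) had no such order over these classes, nor had TGAGAA and CAGCTG. Median GC content of the peaks fell from 49.2% to 47.4% over them. The GATA shares rest on 246 peaks in the farthest class, and the trend was not tested.

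**Figure D3:**
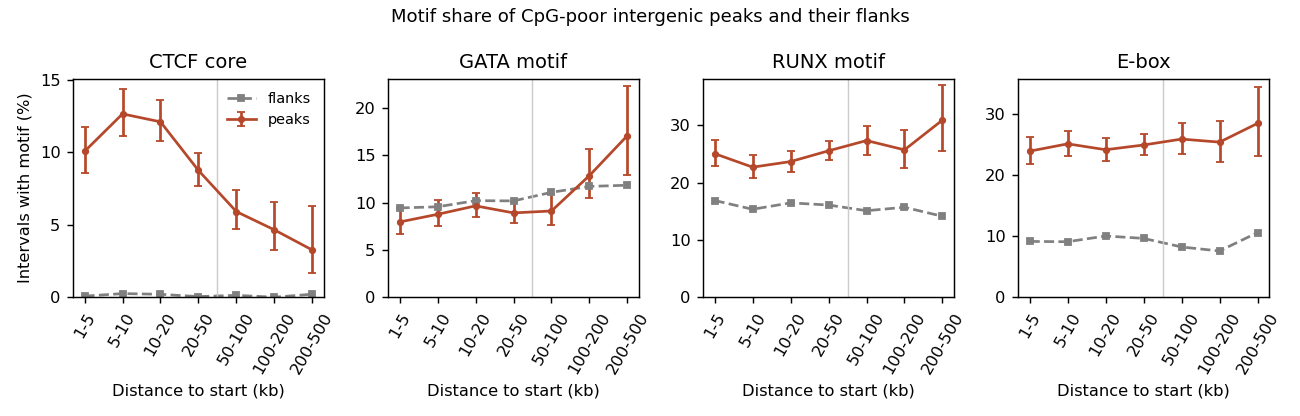
Lines give the percentage of CpG-poor intergenic peaks (red, central 200 bp, 95% Wilson intervals) and of their flanks (grey) with a match (y axis), by distance to the nearest start in kb (x axis), for the CTCF core, GATA, RUNX and the E-box CAGCTG. The CTCF share is 12.6% in the class of 5 to 10 kb and 3.25% in the class of 200 to 500 kb, and the 8 peaks beyond 500 kb are not drawn.

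Remote peaks that stood alone held the CTCF core more often than those in groups. Among the 400 that were the only remote peak of their desert, 37 had the core (9.25%, Wilson interval 6.79 to 12.5), compared with 47 of 721 (6.52%) where a desert held 2 to 4 and 24 of 965 (2.49%, 1.68 to 3.67) where it held 5 or more. Likewise the share was 10.0% in the 240 with no peak within 100 kb and 3.63% in the 1239 with a peak within 20 kb. Peaks with the core were narrower, with a median of 401.5 bp against 480 bp, none of the 108 reached 1 kb, and CAGCTG was found in 16.7% of them against 26.5% of the rest. The ETS motif ran opposite to the core, at 32.3% in single peaks and 42.2% in deserts of 5 or more. None of these subsets was tested. In the deserts described next, the core was present in only 5 of 248 remote peaks. As examples, 2 of those matches are shown with 9 bases on either side, with the core in capitals, on the strand of the match in mm9.
Satb1-Kcnh8, chr17:52699442-52699471, plus strand: aactgctagCCACTAGATGGCagtcatacc
Irf2bp2-Tomm20, chr8:129300687-129300716, minus strand: ctcccttccCCAGCAGAGGGCcctggtggc
The first lay 726.8 kb from Satb1 in a desert of 892 kb, and the second 183.3 kb from Irf2bp2 near the middle of its desert.

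Remote peaks were spread unevenly over the gene deserts. Of 2743 deserts with any DNA more than 50 kb from TSSs, 781 (28.5%) held a remote peak and 400 of these held 1. The 109 deserts with 5 or more held 965 peaks (46.3%), and 129 deserts were enough to hold 50% of all. The 12 deserts with most held 248 remote peaks (11.9%) on 8.61 Mb, 1.26% of the remote DNA. Long deserts were not richer. Of the 152 with over 1 Mb of remote DNA 103 (67.8%) had none, and the density was 0.768 per Mb in these 152, 3.53 per Mb in deserts with 100 kb to 1 Mb and 10.6 per Mb in those with less. Over the 1303 deserts with at least 100 kb of remote DNA the number of peaks and the amount of DNA had a Spearman correlation of -0.00362, given as a description since neighbouring deserts share chromosomes and sequence composition. The 3 longest deserts without a remote peak were Gm5591-Gm16387 on chromosome 7 (7199 kb, of which 114 kb were sequenced and remote), 4930555F03Rik-Aga on chromosome 8 (3991 kb) and Nudt12-Efna5 on chromosome 17 (3801 kb), with 0, 1 and 0 peaks of any class.

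**Figure D4:**
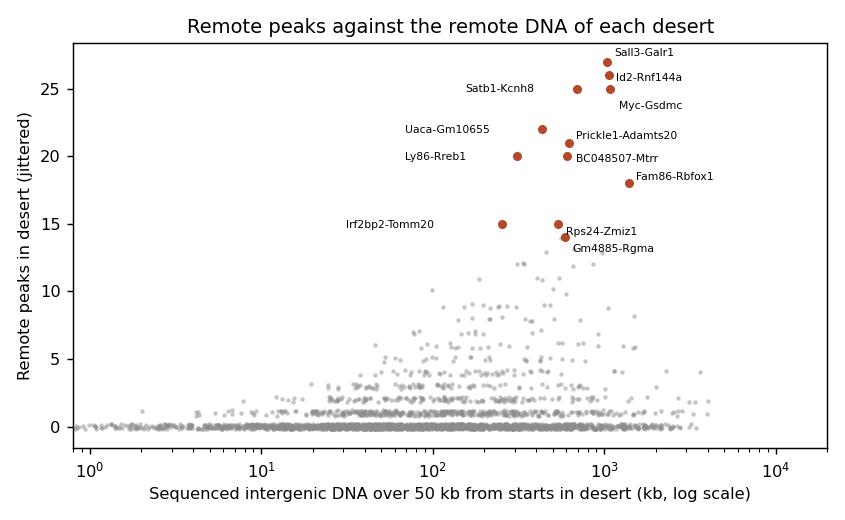
Each point is a desert between coding genes, placed by its sequenced intergenic DNA over 50 kb from starts in kb (x axis, log scale) and its number of remote peaks (y axis, with jitter). The 12 deserts with most remote peaks are named in red and hold 14 to 27 each, and the deserts with the most remote DNA hold few.

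The desert between Id2 and Rnf144a held 26 remote peaks among 30 peaks (chromosome 12, mm9 25780958 to 26991661, 1211 kb). ID2 is an inhibitor that dimerises with E proteins and keeps them off DNA, and RNF144A is a ubiquitin ligase. Of the 26, 17 lay within 400 kb of Id2, and the widest remote peak of the genome lay 93.9 kb from it (chr12:25873958-25875758). The longest run of remote peaks was also here, 6 peaks of 274 to 1567 bp within 35.4 kb that began 136.7 kb from Id2. CAGCTG was present in the centre of 13 of the 26, RUNX in 11 and the CTCF core in 0, and TGGGAA occurred somewhere in 13. Over all remote peaks the central shares were 26.0% for CAGCTG, 27.2% for CACCTG and for RUNX, 38.5% for ETS, 18.9% for TCF/LEF and 5.18% for the CTCF core. TGGGAA occurred somewhere in 39.98%. Motif counts named here and for the deserts below were picked from 12 motifs in 12 deserts and were not tested.

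The desert between Myc and Gsdmc held 25 remote peaks among 42 (chromosome 15, 61821930 to 63607525, 1786 kb). MYC drives growth and is a central Notch target in T-cell leukemia, and Gsdmc encodes a gasdermin. None of the 25 lay within 400 kb of Myc, the first at 402.8 kb and the median at 1290 kb, so that 20 of them were nearer to Gsdmc. The other 17 peaks of the desert missed the rule on position or CpG content, and 5 non-coding genes are annotated in it. Some of these 17 lay between Myc and the first remote peak, from 41.7 to 360.7 kb from Myc. That stretch was therefore not without accessible peaks. A run of 5 remote peaks spanned 21.9 kb at 1280 kb from Myc, and RUNX was present in 11 of the 25 peaks against 7 with CAGCTG. The desert on the other side of Myc added 2 remote peaks.

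Satb1 had the most remote peaks of all coding genes when both sides were added, 29 in total. SATB1 is a chromatin organiser needed for thymocyte development, and its neighbour Kcnh8 encodes a potassium channel. Between them lay 25 remote peaks among 29 (chromosome 17, 51972616 to 52865083, 892 kb). A run of 5 began 50.1 kb from Satb1 and spanned 23.4 kb, and the remainder lay up to 758.7 kb away. CACCTG, RUNX and ETS were each present in 9 of the 25 and CAGCTG in 2, the lowest number among the 12 deserts.

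Another 4 deserts of 341 to 674 kb held 15 to 22 remote peaks each. Uaca-Gm10655 (chromosome 9, 490 kb) held 22 remote peaks and no other, with a median width of 607.5 bp and an ETS match in 14. Prickle1-Adamts20 (chromosome 15, 674 kb), between a planar cell polarity gene and a secreted metalloprotease gene, held 21 and no other, with TCF/LEF matches in 9. Ly86-Rreb1 (chromosome 13, 359 kb) held 20 of 21 peaks, with ETS in 12 and CAGCTG in 10, and RREB1 is a zinc-finger factor downstream of RAS. Irf2bp2-Tomm20 (chromosome 8, 341 kb) held 15 of 19 peaks, the widest by median at 655 bp, with a run of 5 that began 58.7 kb from Irf2bp2, a co-repressor of interferon regulatory factor IRF2.

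In 1 of the 12 deserts most remote peaks were not unique in sequence. BC048507-Mtrr (chromosome 13, 735 kb) held 20 remote peaks, of which 16 had a near-identical copy at another place, defined as 95% identity over at least 80% of the peak. Over all remote peaks 62 (2.97%) had such a copy, against 2.70% of nearer intergenic and 0.820% of intronic peaks. Since the authors kept 1 alignment per read, reads from such peaks may have been placed at a copy, and how much this added was not tested. Without these peaks 11 of the 12 deserts remained among the 12 with most.

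The remaining deserts of the 12 lay beside genes of several kinds. Rps24-Zmiz1 (chromosome 14, 963 kb) held 15 remote peaks among 26, of which 14 were nearer to Zmiz1, a coactivator that works with NOTCH1 in T cells, and the closest lay 141 kb from it. Fam86-Rbfox1 (chromosome 16, 1553 kb) held 18, of which 11 lay within 250 kb of Fam86, and 2 of its peaks were among the 5 farthest from any TSS. Gm4885-Rgma (chromosome 7, 701 kb) held 14 of 18, and all 14 were nearer to Rgma, which encodes a guidance molecule. The largest number between coding genes belonged to Sall3-Galr1 (chromosome 18, 81183318 to 82561887, 1379 kb), with 27 remote peaks among 34. SALL3 is a developmental zinc-finger factor and GALR1 a galanin receptor. Its peaks spanned 1093 kb with a median width of 522 bp, and 3 held the CTCF core, more than in any other of the 12. When non-coding genes also divide deserts, the order changed. Uaca-Gm10655 then had the most with 22, the Sall3-Galr1 interval was split and its richest piece held 19, and the richest pieces of the Satb1, Id2 and Myc deserts held 19, 17 and 13.

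In the RefSeq genes of the later mouse assembly GRCm38.p6, 11 of the 12 flanking pairs were found, with 0 coding genes and 3 to 20 long non-coding RNA genes between them, 11 in the Id2 desert and 20 in the Zmiz1 desert. Some peaks counted as remote here may therefore lie near starts that the older annotation does not hold. Their distance to those starts was not computed, since the builds differ.

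**Figure D5:**
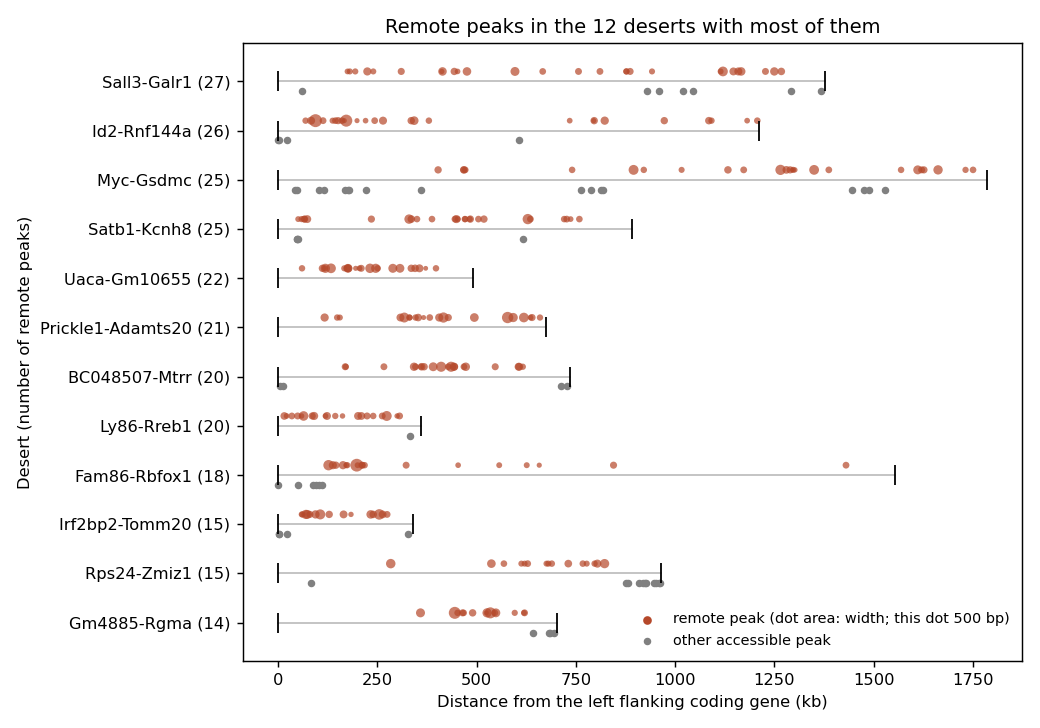
Each line is 1 of the 12 deserts with most remote peaks (y axis, number in parentheses), drawn from the edge of the left coding gene to the right one in kb (x axis). Red dots above the line are remote peaks with area by width, grey dots below are other accessible peaks, and the 25 red dots of the Myc desert begin 403 kb from Myc.

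Ranked by number per Mb of whole desert length among deserts with 5 or more remote peaks, other genes led. Lclat1-Capn13 had 79.2 per Mb (5 peaks), D8Ertd82e-Lonrf1 73.2 (5 peaks), Pcnx-Sipa1l1 59.3 (10 peaks, 8 of them with near-identical copies), Sykb-Auh 59.0, Ly86-Rreb1 55.7 and Scaf11-Slc38a1 45.2 (5 peaks). Sykb is an older symbol of Syk, a tyrosine kinase of lymphocyte receptor signaling. Its whole 186 kb desert was remote DNA, so all 11 peaks there met the position rule by where the desert lies. Deserts of this kind are short, so a handful of peaks gives a high density. Per Mb of remote DNA their order changed, with Pcnx-Sipa1l1 at 100.5, D8Ertd82e-Lonrf1 at 96.7 and Lclat1-Capn13 at 95.6.

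Genes that regulate the T lineage often bordered a desert with remote peaks. Of 45 listed T-lineage genes that border a desert, 25 had remote DNA beside them. Of these 25, 21 (84.0%) had at least 1 remote peak in an adjoining desert and 12 (48.0%) had 3 or more in a single desert. With both sides of a gene added, the median was 3. Over all 4343 coding genes next to remote DNA the same figures were 33.1%, 10.4% and a median of 0. Per Mb of remote DNA the adjoining deserts held 13.3 remote peaks for the T-lineage genes and 3.04 for all. Satb1, Myc and Id2 gave 29, 27 and 26 of the 170 peaks summed over the T-lineage genes. Of 44 listed regulators of neural and other tissues, 18 (40.9%) had a remote peak and 4, Sall3 among them, had 3 or more, at 2.82 per Mb. For 6 listed B and myeloid genes the number was 2, at 9.10 per Mb, and for 7 Notch pathway genes 4, at 7.65 per Mb, so these 2 lists also stood above all coding genes in density. The lists are short, they were chosen with earlier results of these data known, and no test was made of them.

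Apart from Id2, Myc and Satb1, the T-lineage genes, counted in the larger desert of each, were led by Runx1, a RUNX factor of blood development, with 14 remote peaks in the Runx1-Setd4 desert, as many as in Gm4885-Rgma, which ranked before it by summed peak width. Bcl6 (Bcl6-Lpp) and Lef1 (Rpl34-Lef1), a partner of TCF1, followed with 9 each. Foxo1 (Foxo1-Gm10293), Gata3 (Celf2-Gata3) and Tox (Tox-Car8), all transcription regulators of thymocytes, had 8 each. These deserts differed in length, from 263 kb beside Foxo1 to 2776 kb beside Gata3. Ets1 (Ets1-Kirrel3) had 6, Ikzf2 (Erbb4-Ikzf2), the gene of Helios, had 5, and Thy1 (Pvrl1-Thy1), a T-cell surface marker, had 3. Bcl11b, which marks T-lineage commitment, had 1 with 135 kb of remote DNA beside it, and Mef2c had 0 although 1868 kb of remote DNA adjoined it. Prdm1, Rora and Themis also had 0. With both sides added, Foxo1 had 10 and Ikzf2 7.

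Of 29 Notch pathway genes that border a desert, 7 had remote DNA beside them, and of 20205 coding genes 4343 had. Hey1, a bHLH repressor induced by Notch, had 3 remote peaks in the 135 kb Hey1-Mrps28 desert and 4 with both sides. The coactivator genes Maml2 and Maml3 had 2 each and Rbpj had 1. Dll1, Hey2 and Jag1 had 0, with 115, 121 and 627 kb of remote DNA beside them. Among the listed regulators of neural and other tissues, Sall3 had 27, the most of any listed gene in 1 desert, Sox2 (Sox2-Atp11b), a factor of neural and pluripotent cells, had 13, Sox6 had 5 and Lhx9 had 3.

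The widest remote peaks lay in different deserts. After the 1801 bp peak near Id2 came chr16:5452998-5454756 (1759 bp, Fam86-Rbfox1) and chr5:111937977-111939703 (1727 bp, Mn1-C130026L21Rik). A further peak, chr13:28508827-28510449 (1623 bp), lay in the Prl5a1-Sox4 desert, 62.3 kb from the nearest TSS. It was 266 kb from Prl5a1 and 531 kb from Sox4, whose product is a lymphoid and developmental SOX factor. The peak beside Mn1 was the only remote peak of its desert, and none of these 4 had a near-identical copy.

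The peak farthest from any TSS was chr1:144638854-144639222, 369 bp wide and 814.5 kb away, alone in the Kcnt2-Cdc73 desert. It held RUNX and TGGGAA in its centre. The next were chr16:6100520-6101064 (708.3 kb), chr6:109455101-109455613 (623.1 kb), chr10:47174189-47174579 (615.9 kb) and chr16:5913511-5913800 (589.3 kb). The chromosome 10 peak had 20 near-identical copies, the most the search could return, so its place in the genome is uncertain. The other 4 had none.

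At the limits of the rule, the 2 closest remote peaks were 50043 and 50064 bp from the nearest TSS, and the first peaks left out were at 49986 and 49960 bp. The CpG rule left out 33 of 2119 peaks that met the position rule, the nearest to it with ratios of 0.6003 and 0.6025, while the highest ratios kept at a GC content of at least 50% were 0.595 and 0.592. A further 1175 peaks over 50 kb from TSSs had their centre inside a gene and are not included.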

How the data were processed

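ATAC-Seq was done on Beko cells, 3 libraries with GSI and 3 with DMSO, grouped by their labels (DAPT at 10 mg/ml in the labels and 10 µg/ml in the study's methods). According to the methods, the authors aligned reads to mm9 with HISAT2 2.2.1, with a single alignment kept for every read, and took out duplicates with Picard. Peaks were called by MACS2 in each library, and those found in 3 of the libraries and outside blacklisted regions were kept. The deposited list gives the position of each peak, and its score column is 0 throughout. Depth is not part of the list and was not used here. A peak seen under a single treatment cannot be told apart from a shared peak. No column of another series was present.

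Peaks were placed on NCBIM37, the assembly of mm9, with GENCODE vM1 genes. Sequences were read from that assembly. Flanking genes were also looked up in RefSeq (GRCm38.p6), without coordinates. Starts were counted from 0 in the file and from 1 here. Densities by distance, chromosome and gene list use sequenced intergenic bases in the same distance class, and those of single deserts the whole desert length unless remote DNA is named. Motifs were searched on both strands of the central 200 bp and compared by a two-sided exact sign test over 19 autosomes, with Benjamini-Hochberg adjustment over 22 motif tests and over 2 width tests at a threshold of 0.05. The test was checked on simulated motif calls, drawn independently with the same share on every autosome within a class. Differences in share among autosomes and grouping of peaks were not part of that check. Copies were found with minimap2 2.31 (95% identity over 80% of the peak), and analyses used Python 3.11.15 with scipy 1.17.1 and numpy 2.4.6. Peaks of 1 chromosome are not replicates, and the autosomes share the same 6 libraries, so the p-values measure the spread over autosomes and not over cultures.

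Members, motifs and gene lists were chosen with earlier results of these data known. The named genes and peaks are the 12 deserts with most remote peaks, the 6 densest with 5 or more, the 5 widest and 5 farthest peaks, the 3 longest deserts without a remote peak, the densest runs within 10 kb (ties at 5 peaks kept), listed genes with 3 or more, and peaks at the limits, of which 1 wide peak and 1 listed gene are not reported here. Facing RBPJ pairs, the CTCF matches shown, the member subsets and the listed genes with fewer remote peaks were chosen after their values were seen. Alternatives were distance limits of 25 and 100 kb, coding starts, no CpG rule, no base in a gene, a width of at least 500 bp, joining within 1 kb, whole peaks, a GC window of 40 to 50%, other desert definitions and rankings, and peaks without copies. For the deserts, the last was added after seeing the data.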

Additional observations from a re-analysis of the deposited data

How the results depend on the processing

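The number of remote peaks followed the rule, with 900 at a limit of 100 kb, 3862 at 25 kb and 924 with a width of at least 500 bp, and stayed within 1.5 times of 2086 under the other 5 alternatives. Ranking deserts by number per Mb shared 3 of the 12 deserts with most peaks, while the other alternatives shared 11 or 12. With non-coding genes as bounds too, the pieces of these deserts held 13 to 22 in place of 14 to 27. Motifs past the threshold went from 1 to 2 against nearer intergenic peaks and from 1 to 3 against intronic peaks when whole peaks were searched. CAGCTG was added to the first, and TGAGAA (5.01 points) and STAT (2.83 points, both with an exact sign test adjusted p = 0.0195) to the second. The part of peak width in these whole-peak calls was not tested. Against intronic peaks 0 motifs passed at 100 kb and at 40 to 50% central GC, where the CTCF difference was -3.62 and -3.30 points (exact sign test, adjusted p = 0.211 each). Both alternatives use fewer peaks, 900 and 974 remote ones. Against nearer intergenic peaks the CTCF difference passed in all 5 alternatives, between -6.51 and -2.77 points (adjusted p from 8.39e-05 to 0.0160). The width difference against nearer intergenic peaks passed in none of its alternatives and ranged from 5.5 bp with no CpG rule to 14.1 bp at 100 kb. No paired analysis was possible because peaks were merged over treatments and replicates. Without values per library, no depth limit could be set on a single peak.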
